A study of Mus musculus with 30 samples.

Results

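Ribosome biogenesis factors are the proteins that transcribe ribosomal RNA genes and cut, modify, fold and export the precursors of both ribosomal subunits. The 45 mouse genes described here were chosen by symbol, with earlier results of these data known. The rule itself used no measured value, and all 45 were found in the count table, which lists 54532 genes. They fall into 7 role classes: 4 genes of RNA polymerase I and nucleolar transcription, 4 abundant nucleolar proteins, 4 proteins of the box C/D and 4 of the box H/ACA small nucleolar ribonucleoproteins, 14 factors of the small subunit processome, 5 late small subunit factors and 10 large subunit assembly factors. Total RNA was sequenced from murine erythroleukemia (MEL) cells, a mouse erythroid precursor line that makes hemoglobin when given DMSO. WT and Abcb10-null MEL cells were taken at day 0, before DMSO, and after 2 and 5 days of differentiation in 1.5% DMSO, with 5 libraries for each genotype and day and 30 in all. The Abcb10-null cells were 1 clone made with CRISPR/Cas9, so genotype and clone cannot be told apart.

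A ribosome starts in the nucleolus, where RNA polymerase I copies ribosomal DNA into a long precursor RNA. Small nucleolar ribonucleoproteins guide the ribose methylation (box C/D) and pseudouridylation (box H/ACA) of this precursor, and the small subunit processome assembles on its 5' part. Separate sets of factors then mature the precursors of the small and the large subunit and take them to the cytoplasm. Transcripts of these factors are abundant in dividing cells, MYC is a known activator of many of their genes, and erythroid precursors lose nucleoli and stop making ribosomes as they mature.

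Library totals ranged from 9906783 to 20157768 counts, and the lowest count of a member in any library was 33 (*Gar1*), so each member passed the filter on low counts in all 12 comparisons. *Abcb10* transcripts, the check of the labels, were lower in Abcb10-null than in WT cells, with log2 fold changes of -0.68, -1.54 and -2.54 at days 0, 2 and 5 (edgeR adjusted p = 1.16e-07, 0.000551 and 5.51e-08). The labelled cell type was checked with 12 erythroid marker genes, whose summed level was 2806 to 3012 CPM in WT and 2864 to 3221 CPM in Abcb10-null libraries at day 0, 4337 to 6624 and 3012 to 4136 CPM at day 2, and 8544 to 16690 and 3516 to 5386 CPM at day 5. Summed markers of myeloid, lymphoid and fibroblast cells stayed at or under 12.9 CPM in each library, and 5 megakaryocyte markers summed to 154 to 604 CPM. In some groups there were libraries that stood apart. Abcb10-null day 2 replicates 2 and 5 had lower member levels than replicates 1, 3 and 4 in 39 of the 45 members. WT day 5 replicate 5 was the highest WT day 5 library in 39 of the 45 members and had an erythroid marker sum of 8544 CPM, against 15390 to 16690 CPM in the other 4. WT day 2 replicates 1 and 2 had erythroid marker sums of 6620 and 6624 CPM, against 4337 to 4626 CPM in replicates 3, 4 and 5. Abcb10-null day 5 replicate 1 was the lowest of its group in 33 of the 45 members.

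The factors fell strongly as WT cells differentiated and fell less in Abcb10-null cells. Levels are CPM, counts scaled to TMM-adjusted library size, a share of the measured RNA, so a level cannot tell fewer expressing cells from less RNA per cell. Summed over the 45 members, WT libraries held 14604, 14861, 15341, 15038 and 14430 CPM at day 0, 6391, 6265, 6433, 7574 and 6130 CPM at day 2 and 3642, 2808, 3486, 3187 and 4259.8 CPM at day 5. Abcb10-null libraries held 13532, 12997, 12311, 13791 and 13069 CPM at day 0, 13700, 8045, 11202, 13047 and 8088 CPM at day 2 and 5760, 6854, 7142, 6729 and 7909 CPM at day 5. The WT libraries of the 3 days did not overlap, and Abcb10-null libraries of day 5 lay in about the same range as WT libraries of day 2. Group means were 14855 ± 358 (SD, n = 5), 6558 ± 579.6 and 3476 ± 541 CPM in WT and 13140 ± 568, 10816 ± 2672 and 6879 ± 776 CPM in Abcb10-null cells. *Npm1* alone made up much of each sum, and without it the means ran from 11695 to 2778 CPM over days 0 and 5 in WT and from 10295 to 5047 CPM in Abcb10-null cells.

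**Figure D1:**
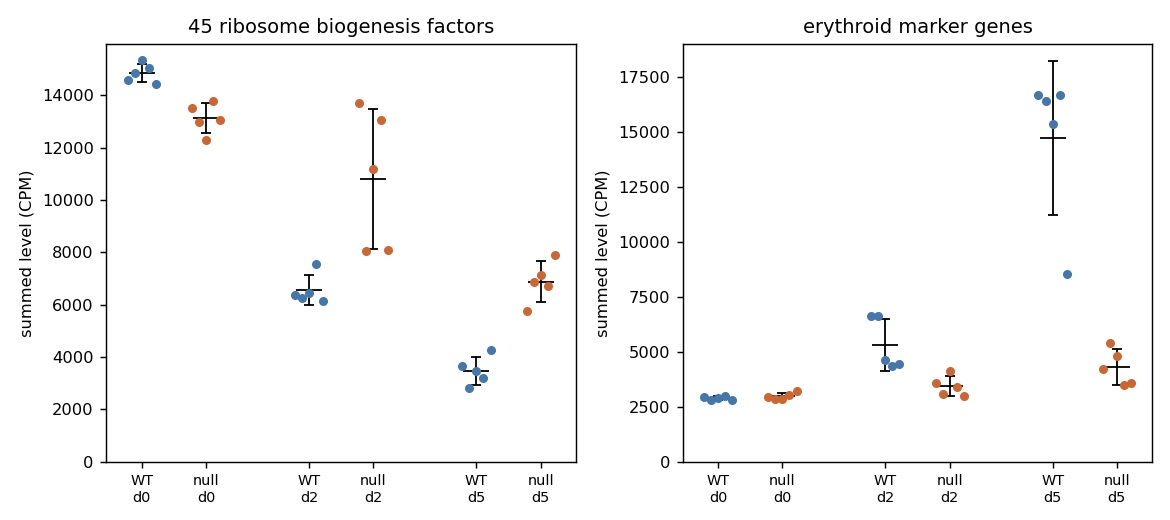
Summed level (CPM) of the 45 ribosome biogenesis factors and of 12 erythroid marker genes in each library. Points are libraries, blue for WT and orange for Abcb10-null (null) at days 0, 2 and 5 (d0, d2, d5), bars are the mean ± SD of 5 libraries. The member sum of Abcb10-null day 2 lies in a lower pair at 8045 and 8088 CPM and an upper group of 3, and WT day 5 replicate 5 is apart from the other 4 in erythroid markers.

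In WT cells nearly every factor fell at each step. Between days 0 and 2, 42 of the 45 members fell (edgeR, adjusted p under 0.05), against 30.7% of all genes tested, and none rose, against 31.5%. The median log2 change was -1.11 over the members and 0.0096 over all genes. The 3 that did not pass were *Nat10*, *Noc4l* and *Noc2l*, at 0.22, -0.11 and -0.21. All 3 were higher in WT day 2 replicates 1 and 2 than in replicates 3, 4 and 5, with *Nat10* at 46.4 and 44.4 CPM against 19.5 to 23.6 CPM. *Nat10* acetylates cytidines of small subunit RNA, and *Noc4l* and *Noc2l* belong to nucleolar complexes of the small and the large subunit. Between days 2 and 5, 41 fell and none rose, against 16.4% and 17% of all genes, with a member median of -1.06. Here the 4 that did not pass were *Utp3*, *Nop10*, *Ltv1* and *Rrp1*, at 0.082, -0.47, -0.49 and -0.40. The count ran from 38 to 43 without each library in turn. Over days 0 to 5 all 45 fell, against 34.7% of all genes, while 36.5% of genes and no member rose. The median change was -2.15, from -3.22 for *Rrp9* to -0.79 for *Utp3*. At day 5 a WT member kept a median of 22.5% of its mean day 0 level, from 10.7% (*Rrp9*) to 57.8% (*Utp3*). These calls were the same in number without each library in turn for days 2 and 5 against day 0.

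In Abcb10-null cells fewer members were called at each step, and the share of the fall seen by day 2 differed between the day 2 libraries. From day 0 to day 2, 21 members fell and 1 rose, against 20.1% and 23.1% of all genes, and the median log2 change was -0.31. The member that rose was *Ncl*, at 0.38 ± 0.13 (SE, edgeR adjusted p = 0.0358). From day 2 to day 5, 35 fell and none rose, against 16.6% and 14.4% of all genes, with a median of -0.71. Over days 0 to 5, 44 of 45 fell and none rose, against 33.3% and 33.9%, with a median of -0.92 and a range of -2.06 to 0.10. *Nop14*, a small subunit processome factor, was the exception, at 0.10 ± 0.089 (edgeR adjusted p = 0.326). At day 5 the members kept a median of 52.2% of their mean day 0 level, from 23.9% (*Rrp9*) to 106% (*Nop14*). Without replicates 2 and 5 of Abcb10-null day 2, 19 members fell and 11 rose by day 2 (median -0.17), and without replicates 1, 3 and 4, 36 fell and 1 rose (median -0.72). The step to day 5 then had 41 members that fell in the first case (median -0.97) and 15 in the second (median -0.30). Fewer libraries entered these fits. The share of all genes called in them is not given here, so these counts cannot be set against it.

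Most called members were lower in Abcb10-null cells at day 0 and higher at days 2 and 5. At day 0, 27 members were lower and 1 was higher in Abcb10-null cells, against 16.2% and 19.7% of all genes tested, with a median log2 fold change of -0.22 and a range of -0.92 to 0.24. A single fit of all 30 libraries called 5 members at day 0, all lower, with a median of -0.21. The share of all genes called in that fit is not given here for any day, so its counts cannot be set against such a share. Of the members given by library below, the single fit lost the day 0 calls of *Npm1*, *Nolc1*, *Nop56*, *Rrp9*, *Nhp2*, *Gar1*, *Utp20*, *Pno1*, *Tsr1* and *Pes1*. At day 2, 28 members were higher and none lower, against 14.9% and 16.9%, with a median of 0.54 and a range of -0.65 to 1.39. That count was 34 without Abcb10-null replicates 2 and 5. Without replicates 1, 3 and 4, which left 2 Abcb10-null libraries, it was 0. There edgeR gave 9 members with an unadjusted p under 0.05, and the median was 0.24, against 0.00497 over all genes. The share of all genes called in these fits is not given here, so the counts cannot be set against it. At day 5, 38 members were higher and none lower, against 19.8% and 17.8%, with a median of 0.83 and a range of -0.29 to 1.62. The day 5 count ran from 33 to 41 without each library in turn and was 41 without WT replicate 5. The single fit of all 30 libraries called 33 members higher and 2 lower at day 2, and 40 higher and 1 lower at day 5. Over all genes the median difference was -0.0019, -0.0022 and -0.016 at the 3 days. Taken by member, 14 of the 45 were called lower at day 0 and higher at both later days, 10 were called higher at days 2 and 5 without a call at day 0, and 7 were lower at day 0 and higher at day 5 without a call at day 2. The share of all genes with each of these patterns was not counted. The patterns rest on the day 0 and day 2 calls, which changed under the settings above. At days 2 and 5 the WT libraries had lower member sums and higher erythroid marker sums than the Abcb10-null libraries. Within WT day 5, replicate 5 had the highest member sum (4259.8 CPM) and the lowest erythroid sum (8544 CPM, against 15390 to 16690 CPM in the others). Within Abcb10-null day 2, replicates 2 and 5 had the lowest member sums and also the lowest erythroid sums (3098 and 3012 CPM, against 3408 to 4136 CPM in the other 3). The part of the erythroid difference in the member values was not tested.

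**Figure D2:**
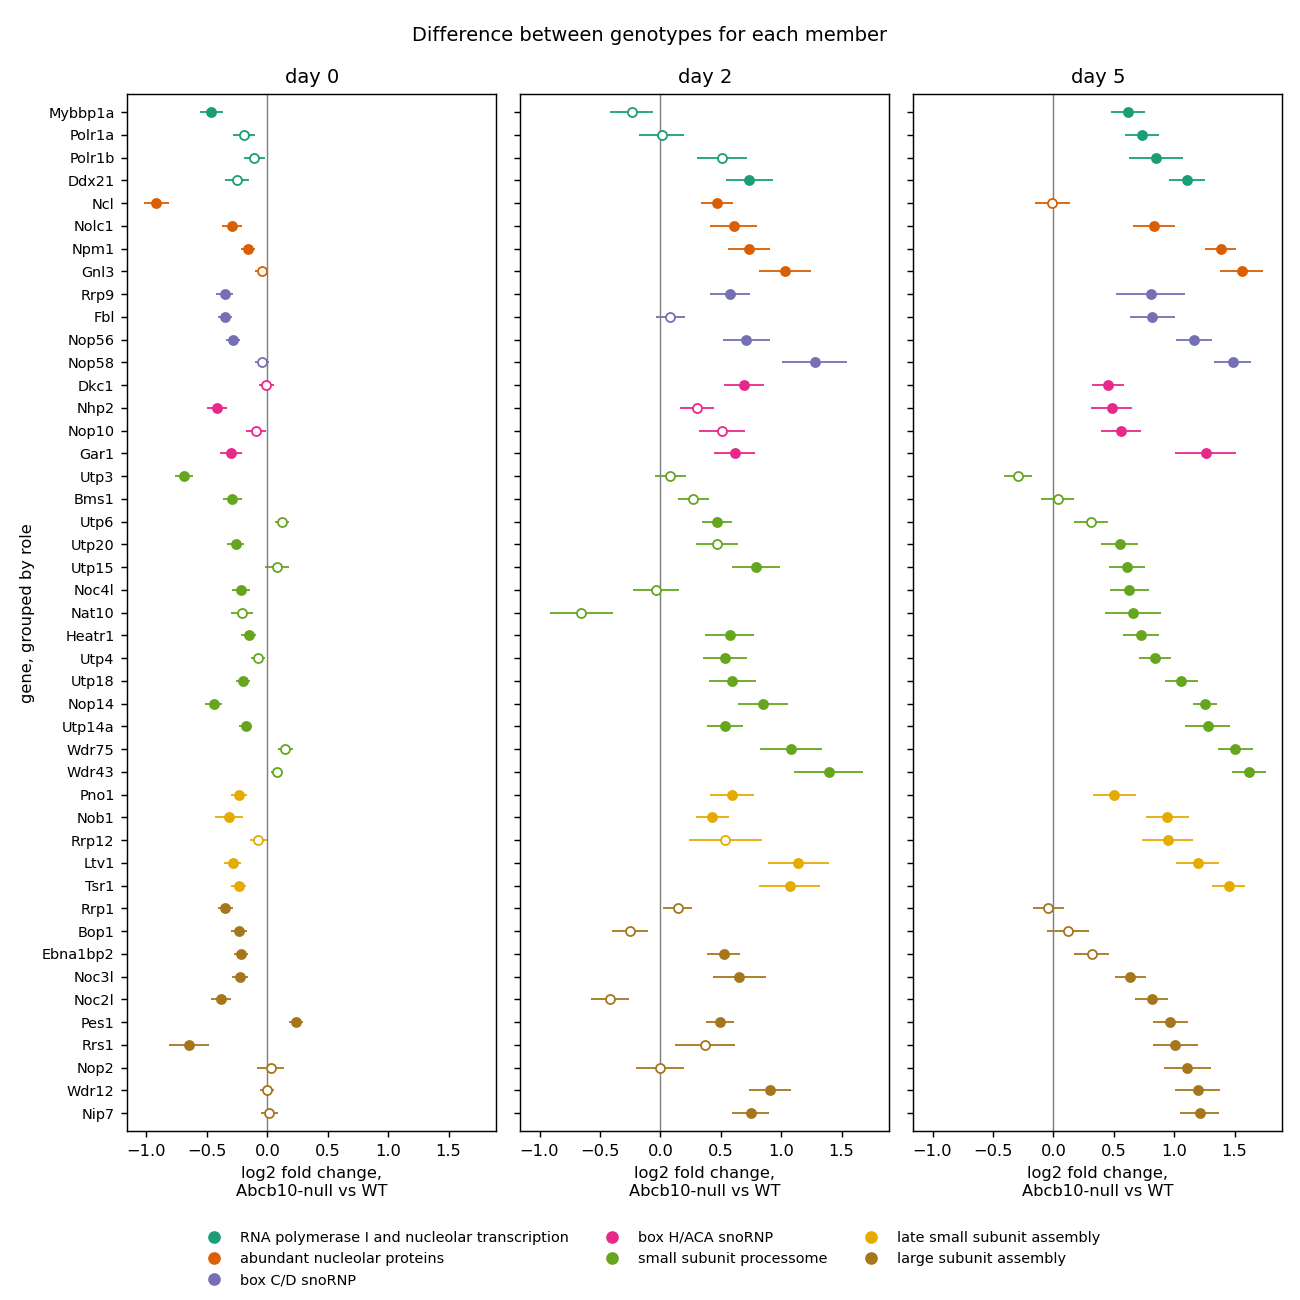
Genotype difference (log2 fold change, Abcb10-null over WT) for each of the 45 members at days 0, 2 and 5, with the standard error as a horizontal bar and 0 as the vertical line. Colours give the role class, filled points passed an edgeR adjusted p of 0.05 and open points did not. Most points lie left of 0 at day 0 and right of it at day 5, where *Utp3*, *Rrp1* and *Ncl* have negative values.

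The genotypes differed in the change itself. From day 0 to day 2 the change was more positive in Abcb10-null than in WT cells for 36 members and less positive for none (interaction of genotype and day, edgeR), against 12% and 10.8% of all genes, with a median difference of 0.79 on the log2 scale. That count was 37 without Abcb10-null day 2 replicates 2 and 5 and 15 without replicates 1, 3 and 4. The share of all genes called in those fits is not given here. Between days 2 and 5 the interaction passed for 4 members, all positive, against 1.77% (positive) and 2.94% (negative) of all genes, and the median was 0.31. These 4 by edgeR, named after their values were seen, were *Noc2l* at 1.17 (adjusted p = 0.00456), *Nat10* at 1.25 (adjusted p = 0.0404), *Nop2*, an RNA methyltransferase of the large subunit, at 1.05 (adjusted p = 0.0378) and *Mybbp1a* at 0.80 (adjusted p = 0.0423). In WT day 2 replicates 1 and 2 all 4 were above replicates 3, 4 and 5. There *Noc2l* was at 110.5 and 109.9 CPM, against 66.8 to 83.9 CPM. *Nat10* was at 46.4 and 44.4 CPM, against 19.5 to 23.6 CPM, and *Nop2* at 76.3 and 86.6 CPM, against 50.2 to 69.2 CPM. On the opposite strand *Samd11* covers 20.9% of the exon bases of *Noc2l*, so some of its reads may belong to *Samd11*. The number of members passing this interaction ran from 1 to 9 without each library in turn and was 9 without WT day 5 replicate 5. Over days 0 to 5 the interaction was positive and passed for 41 members and was negative and passed for none, against 16.8% and 14.7%, with a median of 1.09 and a range of 0.20 to 1.72. All 45 estimates were positive, and *Utp6*, *Bms1*, *Bop1* and *Rrp1* did not pass, at 0.20, 0.34, 0.37 and 0.32. Leaving out WT day 5 replicate 5 gave 45 of 45 and a median of 1.25. The 3 interactions share groups with each other and with the comparisons above.

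**Figure D3:**
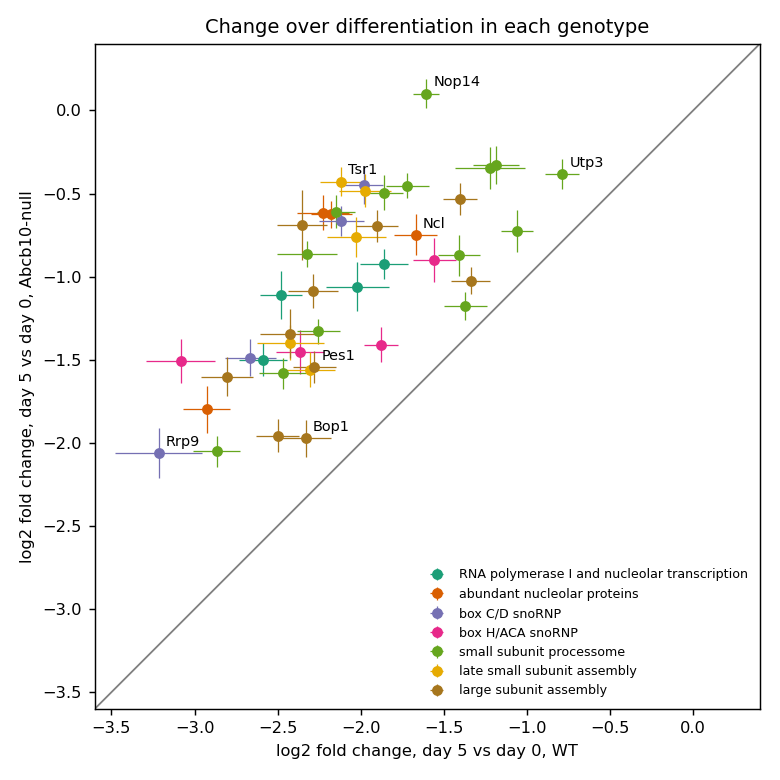
Log2 fold change from day 0 to day 5 in WT (x axis) and in Abcb10-null cells (y axis) for the 45 members, with standard errors as bars, colours for the role class and the line of equal change in grey. Every point lies above the line, *Nop14* lies farthest from it and *Utp6* (unlabelled) nearest, and *Rrp9* has the most negative value on both axes.

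Of the 4 genes of RNA polymerase I and nucleolar transcription, 1 was lower in Abcb10-null cells at day 0, 1 was higher at day 2 and 4 were higher at day 5, with day 5 log2 fold changes of 0.62 to 1.11. For this and each class below, the shares of all genes were 16.2% lower and 19.7% higher at day 0, 14.9% higher at day 2 and 19.8% higher at day 5. In a class of 4 genes, 1 called gene is not set apart from such shares. All 4 fell from day 0 to day 5 in both genotypes, against 34.7% of all genes in WT and 33.3% in Abcb10-null cells. The median log2 changes were -2.25 in WT and -1.09 in Abcb10-null cells. *Polr1a* and *Polr1b*, which encode the catalytic core of RNA polymerase I, were at 0.73 and 0.85 at day 5. *Ddx21* (chromosome 10, 62580251 to 62602281, minus strand, GRCm38 coordinates from GENCODE M21 here and below) encodes a nucleolar RNA helicase that acts in ribosomal RNA transcription and processing. At day 0, *Ddx21* stood at 723, 793, 792, 889.8 and 851 CPM in the WT libraries and at 822, 739.8, 479, 700.2 and 676 CPM in the Abcb10-null libraries. At day 2, *Ddx21* stood at 356, 340.1, 270.0, 391 and 268 CPM in the WT libraries and at 702, 426, 668, 654 and 362 CPM in the Abcb10-null libraries. At day 5, *Ddx21* stood at 141, 132, 132, 127 and 194 CPM in the WT libraries and at 219, 326, 361, 318 and 344 CPM in the Abcb10-null libraries. The genotypes overlapped at days 0 and 2, at day 2 through Abcb10-null replicate 5, and at day 5 every Abcb10-null library was above every WT library. *Ddx21* had log2 fold changes, Abcb10-null over WT, of -0.25 ± 0.10 (SE, edgeR adjusted p = 0.0649) at day 0, 0.74 ± 0.19 (adjusted p = 0.013) at day 2 and 1.11 ± 0.15 (adjusted p = 0.000135) at day 5. *Ddx21* from day 0 to day 5 changed by -2.48 ± 0.12 in WT and by -1.11 ± 0.14 in Abcb10-null cells (log2, edgeR adjusted p = 2.41e-09 and 4.27e-06), a difference of 1.37 ± 0.20 (interaction, adjusted p = 1.53e-05). *Ddx21*, not called at day 0, was called lower there in 4 of 7 other settings and without replicate 1 of either genotype. *Mybbp1a* (chromosome 11, 72441355 to 72451768, plus strand) encodes a nucleolar protein that binds RNA polymerase I components. The day 0 *Mybbp1a* levels were 164, 202, 182, 170.1 and 227 CPM in WT and 145, 144, 109, 141 and 151 CPM in Abcb10-null libraries. The day 2 *Mybbp1a* levels were 135, 127, 72.6, 110.2 and 87.5 CPM in WT and 111, 103, 82.4, 96.3 and 76.3 CPM in Abcb10-null libraries. The day 5 *Mybbp1a* levels were 24.7, 35, 27.3, 29.8 and 40.4 CPM in WT and 47.1, 43.7, 53.9, 45.3 and 52.1 CPM in Abcb10-null libraries. Abcb10-null libraries were all below WT at day 0, mixed with WT at day 2 and all above WT at day 5. Between genotypes, *Mybbp1a* gave log2 fold changes of -0.46 ± 0.093 (SE, edgeR adjusted p = 0.000785), -0.24 ± 0.18 (adjusted p = 0.325) and 0.62 ± 0.14 (adjusted p = 0.00411) at days 0, 2 and 5. The *Mybbp1a* log2 change from day 0 to day 5 was -2.59 ± 0.14 in WT (edgeR adjusted p = 5.62e-09) and -1.50 ± 0.10 in Abcb10-null cells (adjusted p = 1.74e-09), and the interaction was 1.09 ± 0.17 (adjusted p = 4.99e-05).

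Among the 4 abundant nucleolar proteins, 3 were lower at day 0, all 4 were higher at day 2 and 3 were higher at day 5 in Abcb10-null cells, with day 5 log2 fold changes of -0.008 to 1.56. *Npm1* (chromosome 11, 33152287 to 33163206, minus strand) encodes nucleophosmin, a nucleolar histone and ribosomal protein chaperone, and had the highest level per kilobase of exon of the 45. *Npm1* at day 0 measured 3132, 3078, 3384, 3329.9 and 2878 CPM in WT libraries and 2875, 2749, 2722, 3113 and 2769 CPM in Abcb10-null libraries. *Npm1* at day 2 measured 1016, 975, 1580.3, 1540.5 and 1434 CPM in WT libraries and 2799, 1796, 2199, 2569.6 and 1901 CPM in Abcb10-null libraries. *Npm1* at day 5 measured 788, 539, 728, 637 and 801 CPM in WT libraries and 1643, 1854, 1729, 1799 and 2133 CPM in Abcb10-null libraries. WT libraries of day 2 split into a lower pair (replicates 1 and 2) and 3 higher ones, and from day 2 on every Abcb10-null library was above every WT library of its day. For *Npm1*, Abcb10-null minus WT on the log2 scale came to -0.16 ± 0.06, 0.73 ± 0.18 and 1.39 ± 0.13 at the 3 days in order (± SE, edgeR adjusted p = 0.0449, 0.00909 and 9.34e-06). *Npm1* over the 5 days moved by -2.18 ± 0.12 in WT and -0.62 ± 0.083 in Abcb10-null cells on the log2 scale (edgeR adjusted p = 5.73e-09 and 5.47e-06), with an interaction of 1.56 ± 0.14 (adjusted p = 2.3e-08). Transcripts of 4 other genes share a stretch with *Npm1* at 95% identity or more over at least 200 bases, and their counts came to 0.729% of its own. The day 0 call of *Npm1* was lost in 5 of 10 fits with 1 library left out (edgeR adjusted p up to 0.101), with the replicate block and with all genes of at least 1 count. *Ncl* (chromosome 1, 86344719 to 86359400, minus strand) encodes nucleolin, which binds precursor ribosomal RNA and has 3 small nucleolar RNA genes inside its gene. At day 0, *Ncl* stood at 680.2, 809, 885, 759.5 and 720.5 CPM in the WT libraries and at 509, 403, 314, 376 and 446 CPM in the Abcb10-null libraries. At day 2, *Ncl* stood at 350.2, 319, 355, 462 and 334 CPM in the WT libraries and at 502, 602, 562, 443 and 493 CPM in the Abcb10-null libraries. At day 5, *Ncl* stood at 251, 264, 279.8, 239.6 and 175 CPM in the WT libraries and at 190.1, 242, 239, 272 and 268 CPM in the Abcb10-null libraries. Abcb10-null levels were below all WT levels at day 0, overlapped them at day 2 and covered the same range at day 5, where WT replicate 5 was the lowest library. *Ncl* had log2 fold changes, Abcb10-null over WT, of -0.92 ± 0.10 (SE, edgeR adjusted p = 1.22e-06) at day 0, 0.47 ± 0.13 (adjusted p = 0.0185) at day 2 and -0.008 ± 0.14 (adjusted p = 0.973) at day 5. *Ncl* from day 0 to day 5 changed by -1.67 ± 0.13 in WT and by -0.75 ± 0.12 in Abcb10-null cells (log2, edgeR adjusted p = 1.19e-07 and 5.74e-05), a difference of 0.93 ± 0.19 (interaction, adjusted p = 0.000604). *Ncl* was the member with the most negative day 0 difference and a day 5 difference smaller than its standard error, and its day 2 call was lost without WT replicate 2 (edgeR adjusted p = 0.0521). *Nolc1* (chromosome 19, 46075863 to 46085530, plus strand) encodes Nopp140, a chaperone of small nucleolar ribonucleoproteins. The day 0 *Nolc1* levels were 773, 817, 807, 859 and 874 CPM in WT and 774, 706, 511, 675 and 722 CPM in Abcb10-null libraries. The day 2 *Nolc1* levels were 318, 293, 220.2, 354 and 228 CPM in WT and 541, 348, 548, 508 and 288 CPM in Abcb10-null libraries. The day 5 *Nolc1* levels were 107, 76.1, 117, 100.3 and 143 CPM in WT and 131, 180.1, 209, 216 and 231 CPM in Abcb10-null libraries. Its genotypes overlapped on each of the 3 days, at day 2 through Abcb10-null replicates 2 and 5 and at day 5 through WT replicate 5 and Abcb10-null replicate 1. Between genotypes, *Nolc1* gave log2 fold changes of -0.29 ± 0.084 (SE, edgeR adjusted p = 0.0113), 0.61 ± 0.20 (adjusted p = 0.0336) and 0.83 ± 0.17 (adjusted p = 0.00249) at days 0, 2 and 5. The *Nolc1* log2 change from day 0 to day 5 was -2.93 ± 0.14 in WT (edgeR adjusted p = 1.92e-09) and -1.80 ± 0.14 in Abcb10-null cells (adjusted p = 1.6e-08), and the interaction was 1.14 ± 0.21 (adjusted p = 0.000191). Its day 2 call was lost in 6 of 10 fits with 1 library left out (edgeR adjusted p up to 0.0858). *Gnl3* (chromosome 14, 31012433 to 31019152, minus strand) encodes nucleostemin, a nucleolar GTPase found in proliferating cells, with 3 small nucleolar RNA genes inside the gene. *Gnl3* at day 0 measured 396, 390.3, 411, 415 and 386 CPM in WT libraries and 401, 387, 366, 410.0 and 379 CPM in Abcb10-null libraries. *Gnl3* at day 2 measured 201, 196, 173, 196 and 162 CPM in WT libraries and 554, 226, 410.2, 505 and 273 CPM in Abcb10-null libraries. *Gnl3* at day 5 measured 90.8, 60.7, 79.6, 71.4 and 124 CPM in WT libraries and 213, 222, 237, 257 and 329.7 CPM in Abcb10-null libraries. At day 0 the genotypes overlapped, while at days 2 and 5 all Abcb10-null libraries were above all WT libraries. For *Gnl3*, Abcb10-null minus WT on the log2 scale came to -0.047 ± 0.054, 1.03 ± 0.21 and 1.56 ± 0.18 at the 3 days in order (± SE, edgeR adjusted p = 0.526, 0.00551 and 4.47e-05). *Gnl3* over the 5 days moved by -2.23 ± 0.16 in WT and -0.62 ± 0.10 in Abcb10-null cells on the log2 scale (edgeR adjusted p = 4.56e-08 and 7.5e-05), with an interaction of 1.62 ± 0.19 (adjusted p = 1.3e-06).

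The 4 box C/D proteins, which include the methyltransferase fibrillarin (*Fbl*), had 3 members lower at day 0, 3 higher at day 2 and all 4 higher at day 5 in Abcb10-null cells, with log2 fold changes of 0.80 to 1.48 at day 5, the day 5 call of *Rrp9* being lost in most fits with 1 library left out. *Fbl* was -0.35, 0.082 and 0.82 at days 0, 2 and 5 (edgeR adjusted p = 0.000163, 0.634 and 0.00437), and part of its transcript is nearly identical to part of a *Tulp4* transcript, so its counts are uncertain where reads could not be placed. The counts of 2 such genes came to 50.8% of those of *Fbl*. *Nop56* (chromosome 2, 130274430 to 130279313, plus strand) encodes a core box C/D protein and holds 5 small nucleolar RNA genes. At day 0, *Nop56* stood at 424, 447, 475, 420.5 and 435 CPM in the WT libraries and at 370.4, 361, 356, 381 and 348 CPM in the Abcb10-null libraries. At day 2, *Nop56* stood at 242, 232, 218, 276 and 215 CPM in the WT libraries and at 546, 247, 407, 524 and 290.0 CPM in the Abcb10-null libraries. At day 5, *Nop56* stood at 102, 74.4, 104, 90 and 137 CPM in the WT libraries and at 187, 211, 248, 226 and 266 CPM in the Abcb10-null libraries. Abcb10-null libraries were below WT at day 0 and above WT at day 5, and at day 2 only replicate 2 of the Abcb10-null libraries fell within the WT range. *Nop56* had log2 fold changes, Abcb10-null over WT, of -0.28 ± 0.055 (SE, edgeR adjusted p = 0.00054) at day 0, 0.71 ± 0.20 (adjusted p = 0.0169) at day 2 and 1.16 ± 0.15 (adjusted p = 1e-04) at day 5. *Nop56* from day 0 to day 5 changed by -2.12 ± 0.14 in WT and by -0.67 ± 0.091 in Abcb10-null cells (log2, edgeR adjusted p = 1.93e-08 and 7.75e-06), a difference of 1.46 ± 0.16 (interaction, adjusted p = 6.38e-07). *Nop58* (chromosome 1, 59684971 to 59719044, plus strand) encodes the partner of NOP56 and holds 4 small nucleolar RNA genes. The day 0 *Nop58* levels were 662, 654, 694, 704 and 585 CPM in WT and 648, 608, 635, 691 and 637 CPM in Abcb10-null libraries. The day 2 *Nop58* levels were 321, 316, 295, 337 and 257 CPM in WT and 1142, 365, 795, 1089.9 and 459 CPM in Abcb10-null libraries. The day 5 *Nop58* levels were 185, 126, 172, 156 and 196 CPM in WT and 343, 505, 563, 403 and 526 CPM in Abcb10-null libraries. The spread was widest in Abcb10-null cells at day 2, where replicates 1 and 4 stood highest and replicate 2 was closest to WT, and Abcb10-null libraries were above WT at days 2 and 5. Between genotypes, *Nop58* gave log2 fold changes of -0.043 ± 0.06 (SE, edgeR adjusted p = 0.611), 1.28 ± 0.27 (adjusted p = 0.00579) and 1.48 ± 0.15 (adjusted p = 2.05e-05) at days 0, 2 and 5. The *Nop58* log2 change from day 0 to day 5 was -1.98 ± 0.12 in WT (edgeR adjusted p = 9.7e-09) and -0.45 ± 0.12 in Abcb10-null cells (adjusted p = 0.00274), and the interaction was 1.54 ± 0.17 (adjusted p = 5.12e-07). *Rrp9* (chromosome 9, 106475963 to 106485424, plus strand) encodes a protein specific to the U3 ribonucleoprotein, which is needed for the first cuts of the precursor. *Rrp9* at day 0 measured 208, 224, 200.2, 195 and 212 CPM in WT libraries and 161, 154, 179, 177 and 145 CPM in Abcb10-null libraries. *Rrp9* at day 2 measured 61.4, 57.8, 53.8, 78.2 and 55.3 CPM in WT libraries and 119.7, 78.6, 85.8, 119.5 and 70.4 CPM in Abcb10-null libraries. *Rrp9* at day 5 measured 24.8, 10.4, 17.9, 19 and 39.4 CPM in WT libraries and 27.8, 31.8, 35.6, 47.2 and 52.8 CPM in Abcb10-null libraries. The genotypes were apart at day 0, with Abcb10-null lower, and overlapped at days 2 and 5, where WT replicate 5 was above 3 of the Abcb10-null libraries. For *Rrp9*, Abcb10-null minus WT on the log2 scale came to -0.35 ± 0.068, 0.58 ± 0.17 and 0.80 ± 0.29 at the 3 days in order (± SE, edgeR adjusted p = 0.000541, 0.0193 and 0.0409). *Rrp9* over the 5 days moved by -3.22 ± 0.26 in WT and -2.06 ± 0.15 in Abcb10-null cells on the log2 scale (edgeR adjusted p = 1.61e-07 and 5.95e-09), with an interaction of 1.16 ± 0.30 (adjusted p = 0.0047). The fall of *Rrp9* in WT was the largest of the 45. With 1 library left out its day 5 call was lost in 8 of 10 fits (edgeR adjusted p up to 0.111) and its day 2 call was lost without Abcb10-null replicate 1 or 4.

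Of the 4 box H/ACA proteins, 2 were lower at day 0, 2 higher at day 2 and all 4 higher at day 5 in Abcb10-null cells, and their day 5 log2 fold changes, 0.45 to 1.26, had a median of 0.52, the day 5 call of *Nhp2* being lost in most fits with 1 library left out. *Dkc1*, the pseudouridine synthase dyskerin, was 0.69 at day 2 and 0.45 at day 5 (edgeR adjusted p = 0.00952 and 0.0159). *Nhp2* (chromosome 11, 51619735 to 51623714, plus strand) encodes a core RNA-binding protein of these particles. At day 0, *Nhp2* stood at 480.4, 484, 456, 386 and 424 CPM in the WT libraries and at 328, 305, 395, 358 and 294 CPM in the Abcb10-null libraries. At day 2, *Nhp2* stood at 149, 157, 198, 238 and 181 CPM in the WT libraries and at 269, 228, 235, 258 and 185 CPM in the Abcb10-null libraries. At day 5, *Nhp2* stood at 92, 62, 92.8, 74.6 and 112 CPM in the WT libraries and at 88.7, 125, 139.9, 104 and 150.1 CPM in the Abcb10-null libraries. WT and Abcb10-null libraries overlapped on all 3 days, Abcb10-null being mostly lower at day 0 and mostly higher at day 5. *Nhp2* had log2 fold changes, Abcb10-null over WT, of -0.42 ± 0.081 (SE, edgeR adjusted p = 6e-04) at day 0, 0.30 ± 0.14 (adjusted p = 0.117) at day 2 and 0.48 ± 0.17 (adjusted p = 0.0388) at day 5. *Nhp2* from day 0 to day 5 changed by -2.36 ± 0.14 in WT and by -1.46 ± 0.13 in Abcb10-null cells (log2, edgeR adjusted p = 1.11e-08 and 8.15e-08), a difference of 0.92 ± 0.20 (interaction, adjusted p = 0.00127). The day 5 call of *Nhp2* was lost in 7 of 10 fits with 1 library left out (edgeR adjusted p up to 0.108) and with all genes of at least 1 count in the fit (adjusted p = 0.0603). *Gar1* (chromosome 3, 129824912 to 129831396, minus strand) encodes another core protein and was among the least abundant members. The day 0 *Gar1* levels were 25.6, 30.3, 29.9, 33.9 and 28.4 CPM in WT and 27, 21.1, 22.7, 23.4 and 26.5 CPM in Abcb10-null libraries. The day 2 *Gar1* levels were 11, 11.3, 9.93, 14.9 and 11 CPM in WT and 21, 15, 19.8, 21.3 and 15.1 CPM in Abcb10-null libraries. The day 5 *Gar1* levels were 5.02, 2.5, 4.61, 2.89 and 2.51 CPM in WT and 6.75, 9.02, 9.33, 7.27 and 9.69 CPM in Abcb10-null libraries. The genotypes overlapped at day 0, and at days 2 and 5 each Abcb10-null library was above each WT library, by a narrow margin at day 2. Between genotypes, *Gar1* gave log2 fold changes of -0.30 ± 0.093 (SE, edgeR adjusted p = 0.0169), 0.61 ± 0.17 (adjusted p = 0.0166) and 1.26 ± 0.25 (adjusted p = 0.00186) at days 0, 2 and 5. The *Gar1* log2 change from day 0 to day 5 was -3.08 ± 0.21 in WT (edgeR adjusted p = 2.89e-08) and -1.50 ± 0.13 in Abcb10-null cells (adjusted p = 5.39e-08), and the interaction was 1.59 ± 0.24 (adjusted p = 2.31e-05). The day 0 call of *Gar1* was lost without Abcb10-null replicate 2 (edgeR adjusted p = 0.0566).

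In the small subunit processome, which assembles on nascent precursor RNA, 8 of 14 members were lower at day 0, 9 were higher at day 2 and 11 were higher at day 5 in Abcb10-null cells, over ranges of -0.69 to 0.15, -0.65 to 1.39 and -0.29 to 1.62 on the log2 scale. They changed from day 0 to day 5 by a median of -1.66 in WT and -0.67 in Abcb10-null cells. *Utp3*, *Bms1* and *Utp6* were not called at day 5, at -0.29, 0.036 and 0.31. *Wdr43* (chromosome 17, 71615895 to 71659031, plus strand) encodes a subunit of the complex that links the processome to ribosomal DNA transcription, and holds 3 small nucleolar RNA genes. *Wdr43* at day 0 measured 488, 500.1, 505, 512 and 499 CPM in WT libraries and 529, 517, 515, 560.1 and 545 CPM in Abcb10-null libraries. *Wdr43* at day 2 measured 225, 222, 208, 227 and 187 CPM in WT libraries and 904, 269, 540.3, 869 and 336 CPM in Abcb10-null libraries. *Wdr43* at day 5 measured 120.5, 85.8, 109.6, 107 and 141 CPM in WT libraries and 274, 362, 405, 316 and 379 CPM in Abcb10-null libraries. Abcb10-null libraries were above all WT libraries on each day, by little at day 0, and at day 2 they ran from replicate 2, the lowest, to replicate 1, the highest. For *Wdr43*, Abcb10-null minus WT on the log2 scale came to 0.083 ± 0.05, 1.39 ± 0.29 and 1.62 ± 0.14 at the 3 days in order (± SE, edgeR adjusted p = 0.209, 0.00526 and 5.5e-06). *Wdr43* over the 5 days moved by -2.15 ± 0.12 in WT and -0.61 ± 0.10 in Abcb10-null cells on the log2 scale (edgeR adjusted p = 4.27e-09 and 3.92e-05), with an interaction of 1.55 ± 0.15 (adjusted p = 9.35e-08). *Wdr43* had the largest day 5 difference of the 45, and *Wdr75*, of the same complex, was at 1.51. *Utp20* (chromosome 10, 88746607 to 88826804, minus strand) encodes a very large scaffold protein of the processome. At day 0, *Utp20* stood at 231, 242, 251, 239.8 and 258 CPM in the WT libraries and at 217, 206, 176, 194 and 233 CPM in the Abcb10-null libraries. At day 2, *Utp20* stood at 83.1, 80.2, 61.4, 89.8 and 63 CPM in the WT libraries and at 121, 84, 137, 124 and 77.7 CPM in the Abcb10-null libraries. At day 5, *Utp20* stood at 28, 30.3, 32.2, 28.6 and 48.3 CPM in the WT libraries and at 43.2, 46.6, 47.9, 52.4 and 55.6 CPM in the Abcb10-null libraries. The ranges overlapped on each day, at day 5 only through WT replicate 5. *Utp20* had log2 fold changes, Abcb10-null over WT, of -0.26 ± 0.069 (SE, edgeR adjusted p = 0.00651) at day 0, 0.47 ± 0.17 (adjusted p = 0.0531) at day 2 and 0.55 ± 0.15 (adjusted p = 0.0125) at day 5. *Utp20* from day 0 to day 5 changed by -2.87 ± 0.14 in WT and by -2.05 ± 0.095 in Abcb10-null cells (log2, edgeR adjusted p = 2.07e-09 and 4.06e-11), a difference of 0.82 ± 0.17 (interaction, adjusted p = 0.000601). *Utp20*, not called at day 2, was called there in 5 of 7 other settings and in 3 of 10 fits with 1 library left out.

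All 5 late small subunit factors, which ripen the small subunit precursor and cut its last RNA spacer, were higher in Abcb10-null cells at day 5, 4 were higher at day 2 and 4 were lower at day 0, with ranges of 0.51 to 1.45, 0.43 to 1.14 and -0.32 to -0.074. *Pno1* (chromosome 11, 17203198 to 17211568, minus strand) encodes the partner of the endonuclease NOB1. The day 0 *Pno1* levels were 137, 139, 146, 152 and 134 CPM in WT and 131, 116, 119, 127 and 111 CPM in Abcb10-null libraries. The day 2 *Pno1* levels were 43.9, 44.5, 57.4, 62.6 and 49.6 CPM in WT and 93.8, 63.2, 90.7, 104 and 51.8 CPM in Abcb10-null libraries. The day 5 *Pno1* levels were 35.5, 21.1, 29.5, 20.8 and 36 CPM in WT and 35.9, 34, 44.2, 38.7 and 50.5 CPM in Abcb10-null libraries. Abcb10-null libraries were below WT at day 0 and overlapped WT at days 2 and 5. Between genotypes, *Pno1* gave log2 fold changes of -0.24 ± 0.065 (SE, edgeR adjusted p = 0.00812), 0.60 ± 0.18 (adjusted p = 0.0251) and 0.51 ± 0.18 (adjusted p = 0.0387) at days 0, 2 and 5. The *Pno1* log2 change from day 0 to day 5 was -2.31 ± 0.15 in WT (edgeR adjusted p = 2.83e-08) and -1.56 ± 0.11 in Abcb10-null cells (adjusted p = 3.15e-09), and the interaction was 0.76 ± 0.19 (adjusted p = 0.00353). With 1 library left out, the calls of *Pno1* were lost in 6 of 10 fits at day 2 and 6 of 10 at day 5 (edgeR adjusted p up to 0.0715 and 0.111), and at day 5 also with all genes of at least 1 count in the fit (adjusted p = 0.0774). *Rrp12* (chromosome 19, 41862851 to 41896173, minus strand) encodes a factor for the export of both subunits. *Rrp12* at day 0 measured 166, 194, 181, 189.6 and 197 CPM in WT libraries and 172, 183, 153, 182 and 195 CPM in Abcb10-null libraries. *Rrp12* at day 2 measured 91.4, 90.5, 57.7, 98.1 and 62.7 CPM in WT libraries and 171, 55.9, 141, 176 and 62 CPM in Abcb10-null libraries. *Rrp12* at day 5 measured 31, 21.5, 32.1, 30.3 and 57.9 CPM in WT libraries and 50.5, 64, 72.9, 69 and 77.1 CPM in Abcb10-null libraries. At day 2 the Abcb10-null libraries fell into replicates 1, 3 and 4, above WT, and replicates 2 and 5, near or just under the lowest WT library, and at day 5 WT replicate 5 alone overlapped the Abcb10-null range. For *Rrp12*, Abcb10-null minus WT on the log2 scale came to -0.074 ± 0.07, 0.54 ± 0.30 and 0.95 ± 0.21 at the 3 days in order (± SE, edgeR adjusted p = 0.43, 0.188 and 0.00402). *Rrp12* over the 5 days moved by -2.42 ± 0.20 in WT and -1.40 ± 0.11 in Abcb10-null cells on the log2 scale (edgeR adjusted p = 2.24e-07 and 1.02e-08), with an interaction of 1.03 ± 0.23 (adjusted p = 0.00159). *Rrp12*, not called at day 2, was called higher there without Abcb10-null replicate 2 (edgeR adjusted p = 0.0432), in the fit of all 30 libraries and with all genes of at least 1 count. *Tsr1* (chromosome 11, 74898071 to 74909342, plus strand) encodes a GTPase-like factor that keeps the immature small subunit from starting translation, and holds 2 small nucleolar RNA genes. At day 0, *Tsr1* stood at 192, 196, 214, 184 and 194 CPM in the WT libraries and at 171, 164, 151, 179.6 and 171 CPM in the Abcb10-null libraries. At day 2, *Tsr1* stood at 93.6, 99.7, 80.3, 112 and 86.1 CPM in the WT libraries and at 290.3, 96.1, 228, 276 and 139.7 CPM in the Abcb10-null libraries. At day 5, *Tsr1* stood at 44.2, 37.5, 44.2, 38.2 and 61.1 CPM in the WT libraries and at 117, 113, 118, 120.4 and 149.5 CPM in the Abcb10-null libraries. Abcb10-null libraries were below WT at day 0 and above WT at day 5, and at day 2 replicate 2 lay within the WT range. *Tsr1* had log2 fold changes, Abcb10-null over WT, of -0.24 ± 0.061 (SE, edgeR adjusted p = 0.00542) at day 0, 1.07 ± 0.25 (adjusted p = 0.00855) at day 2 and 1.45 ± 0.14 (adjusted p = 1.15e-05) at day 5. *Tsr1* from day 0 to day 5 changed by -2.12 ± 0.12 in WT and by -0.43 ± 0.086 in Abcb10-null cells (log2, edgeR adjusted p = 9.22e-09 and 0.000347), a difference of 1.70 ± 0.15 (interaction, adjusted p = 2.45e-08). On the opposite strand the gene *Srr* covers 32.3% of the exon bases of *Tsr1*, and the strand setting of the counting is not given in the sources used here, so some of its reads may belong to *Srr*.

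Among the 10 large subunit assembly factors, 6 were lower and 1 was higher at day 0, 5 were higher at day 2 and 7 were higher at day 5 in Abcb10-null cells, over ranges of -0.65 to 0.24, -0.42 to 0.91 and -0.041 to 1.21. The 3 not called at day 5 were *Rrp1*, *Bop1* and *Ebna1bp2*, at -0.041, 0.12 and 0.32. *Bop1*, *Pes1* and *Wdr12* encode the 3 proteins of the PeBoW complex, and their day 5 differences were unlike in size. *Pes1* (chromosome 11, 3963975 to 3980004, plus strand) encodes pescadillo. The day 0 *Pes1* levels were 378, 366, 393, 376 and 357 CPM in WT and 435, 461, 459, 461 and 401 CPM in Abcb10-null libraries. The day 2 *Pes1* levels were 126, 124, 152, 162 and 140.5 CPM in WT and 233, 178, 199, 234 and 183 CPM in Abcb10-null libraries. The day 5 *Pes1* levels were 86.4, 52.6, 77.5, 77.3 and 91.4 CPM in WT and 145, 131, 136, 158 and 184 CPM in Abcb10-null libraries. Abcb10-null libraries were above all WT libraries on each day, and *Pes1* was the only member called higher at day 0, a call lost in the fit of all 30 libraries (adjusted p = 0.194 by edgeR). Between genotypes, *Pes1* gave log2 fold changes of 0.24 ± 0.057 (SE, edgeR adjusted p = 0.00335), 0.49 ± 0.12 (adjusted p = 0.00909) and 0.97 ± 0.14 (adjusted p = 0.00027) at days 0, 2 and 5. The *Pes1* log2 change from day 0 to day 5 was -2.28 ± 0.13 in WT (edgeR adjusted p = 6.14e-09) and -1.54 ± 0.095 in Abcb10-null cells (adjusted p = 9.25e-10), and the interaction was 0.74 ± 0.16 (adjusted p = 0.000852). *Wdr12* (chromosome 1, 60069785 to 60098645, minus strand) encodes a WD-repeat protein of the same complex and shares stretches of transcript with 6 other genes, whose counts came to 244.7% of its own, *Tmod3* having the most, so its counts are uncertain where reads could not be placed. *Wdr12* at day 0 measured 213, 198, 216, 208 and 197 CPM in WT libraries and 226, 199, 206, 199 and 201 CPM in Abcb10-null libraries. *Wdr12* at day 2 measured 71.2, 69.2, 59.5, 73.2 and 58.8 CPM in WT libraries and 170.3, 92.8, 119, 167 and 96.2 CPM in Abcb10-null libraries. *Wdr12* at day 5 measured 28.8, 20.3, 30.2, 25.7 and 42.3 CPM in WT libraries and 47.4, 67.8, 73.7, 68.1 and 80.7 CPM in Abcb10-null libraries. The genotypes overlapped at day 0 and did not overlap at days 2 and 5. For *Wdr12*, Abcb10-null minus WT on the log2 scale came to -0.0061 ± 0.059, 0.91 ± 0.18 and 1.19 ± 0.18 at the 3 days in order (± SE, edgeR adjusted p = 0.948, 0.00441 and 0.000353). *Wdr12* over the 5 days moved by -2.81 ± 0.16 in WT and -1.60 ± 0.12 in Abcb10-null cells on the log2 scale (edgeR adjusted p = 5.56e-09 and 5.61e-09), with an interaction of 1.21 ± 0.19 (adjusted p = 5.23e-05). *Bop1* was -2.33 ± 0.15 in WT and -1.97 ± 0.11 in Abcb10-null cells from day 0 to day 5, with an interaction of 0.37 ± 0.18 (edgeR adjusted p = 0.139). *Nip7* (chromosome 8, 107056877 to 107060931, plus strand) encodes a factor for the maturation of large subunit RNA. At day 0, *Nip7* stood at 377, 369.9, 402, 342 and 349.7 CPM in the WT libraries and at 364, 351, 412, 410.3 and 333 CPM in the Abcb10-null libraries. At day 2, *Nip7* stood at 127, 135, 152, 173 and 149 CPM in the WT libraries and at 327, 205, 241, 307 and 199 CPM in the Abcb10-null libraries. At day 5, *Nip7* stood at 83.5, 48.5, 76.1, 71.1 and 97.9 CPM in the WT libraries and at 153, 161, 174, 169 and 219 CPM in the Abcb10-null libraries. The ranges were alike at day 0, and every Abcb10-null library was above every WT library at days 2 and 5. *Nip7* had log2 fold changes, Abcb10-null over WT, of 0.016 ± 0.068 (SE, edgeR adjusted p = 0.878) at day 0, 0.75 ± 0.15 (adjusted p = 0.00489) at day 2 and 1.21 ± 0.16 (adjusted p = 0.000125) at day 5. *Nip7* from day 0 to day 5 changed by -2.29 ± 0.15 in WT and by -1.09 ± 0.10 in Abcb10-null cells (log2, edgeR adjusted p = 2.33e-08 and 1.13e-07), a difference of 1.21 ± 0.18 (interaction, adjusted p = 2.59e-05).

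**Figure D4:**
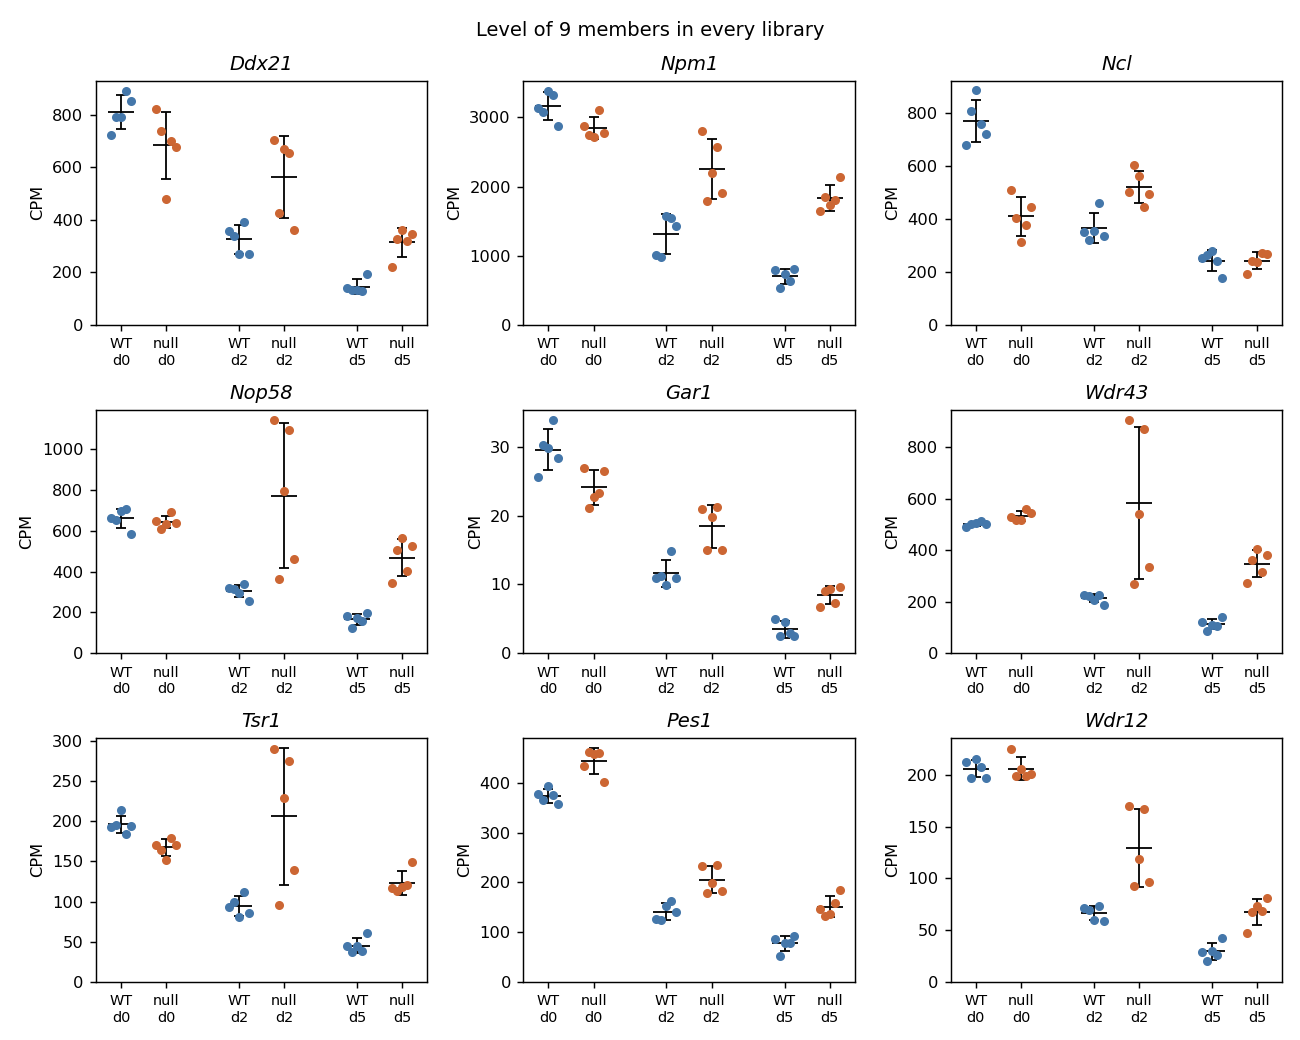
Level (CPM) of 9 members in every library, in blue for WT and orange for Abcb10-null (null) at days 0, 2 and 5 (d0, d2, d5), with the mean ± SD of 5 libraries. The 9 were picked by no stated rule from the 19 members given by library. *Rrp9*, *Nhp2* and *Pno1*, whose day 5 calls were lost in most fits that left out a library, are not shown. *Ncl* has a log2 fold change of -0.92 at day 0 and -0.008 at day 5, *Pes1* is higher in Abcb10-null libraries on all 3 days, and *Nop58*, *Wdr43* and *Tsr1* are spread widely in Abcb10-null cells at day 2.

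Levels differed widely among members. As the mean CPM per kilobase of exon over all 30 libraries, *Npm1* was at 757, *Nhp2* at 205 and *Nolc1* at 106, and the lowest were *Gar1*, *Polr1a* and *Nat10*, at 9.31, 5.62 and 3.06. The spread between replicate libraries was lowest at day 0 in both genotypes and highest at day 5 in WT and at day 2 in Abcb10-null cells. The median coefficient of variation of a member was 5.79% for WT and 7.94% for Abcb10-null libraries at day 0, 14.4% and 24.6% at day 2, and 22.3% and 15% at day 5. The 7 members not called at day 5 were *Utp3*, *Rrp1*, *Ncl*, *Bms1*, *Bop1*, *Utp6* and *Ebna1bp2*, with standard errors of 0.12 to 0.18 on the log2 scale. Of these, *Ncl* and *Utp3*, the processome member that kept most of its level in WT (57.8% of the day 0 mean), also had the most negative differences at day 0, -0.92 and -0.69.

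Of the 45 members, 7 have small nucleolar RNA genes inside the gene, a known arrangement in genes of the ribosome pathway: *Ncl*, *Gnl3*, *Nop56*, *Nop58*, *Dkc1*, *Wdr43* and *Tsr1*. Their day 5 differences ranked 1, 2, 4, 5, 13, 38 and 43 of the 45 for *Wdr43*, *Gnl3*, *Nop58*, *Tsr1*, *Nop56*, *Dkc1* and *Ncl*. As a description, the genotype difference had a log2 median of 1.03 over these 7 and 0.52 over the other 38 at day 2, and 1.45 and 0.82 at day 5, and ranges of both groups overlapped.

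Other genes of the pathway were counted in lists. At day 5, 24 of 43 further small subunit factors were higher and 2 lower in Abcb10-null cells (median log2 fold change 0.45), 35 of 52 further large subunit factors were higher and none lower (median 0.58), and 12 of 23 nucleases that trim ribosomal RNA, mostly exosome and RNase subunits, were higher and 3 lower (median 0.39). Of 20 further genes of RNA polymerase I, 8 were higher and 1 lower (median 0.28). The shares of all genes stand above, at 19.8% higher and 17.8% lower. At day 0 (all genes 16.2% lower and 19.7% higher) the lists had 15, 14, 8 and 10 genes lower and 1, 1, 2 and 0 higher, in the same order. Cytosolic ribosomal proteins, are what the factors assemble into subunits. In Abcb10-null cells 32 of 78 rose and 4 fell from day 0 to day 5 (median 0.17), against 33.9% and 33.3% of all genes in the same directions. Of the 45 factors, 44 fell. In WT 64 fell and none rose (median -0.59, against 34.7% and 36.5% of all genes), and between genotypes 48 were lower and 4 higher at day 0, 2 were higher at day 2 and 55 were higher at day 5. A difference between the factors and the ribosomal proteins was not tested.

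**Figure D5:**
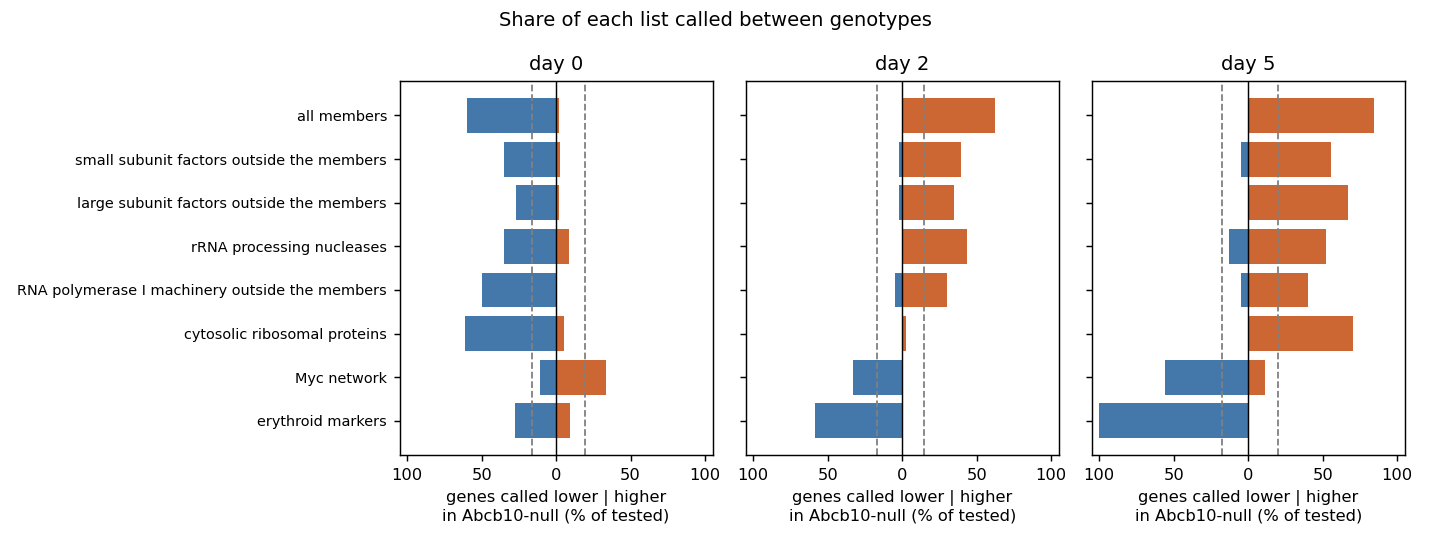
Share of each gene list (percent of its tested genes) called higher (orange, right of 0) or lower (blue, left of 0) in Abcb10-null than in WT cells at days 0, 2 and 5. Dashed lines give the share of all genes called in that direction. The 45 members have 60% called lower at day 0 and 84.4% called higher at day 5, and at day 5 all 12 erythroid markers are lower.

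*Myc*, *Ubtf* and *Rrn3* are known regulators of ribosomal RNA genes: MYC activates genes of the pathway, UBTF keeps ribosomal DNA open and RRN3 recruits RNA polymerase I. The day 0 *Myc* levels were 33.3, 33.7, 33.3, 36.3 and 47.6 CPM in WT and 31, 29.7, 23.7, 24.8 and 31.7 CPM in Abcb10-null libraries. The day 2 *Myc* levels were 53.7, 47.8, 39.3, 40.9 and 38.6 CPM in WT and 59.5, 69.7, 60, 48.2 and 55.2 CPM in Abcb10-null libraries. The day 5 *Myc* levels were 15.7, 18, 14.2, 13.5 and 17.9 CPM in WT and 26.5, 26.8, 28.7, 30.3 and 31.1 CPM in Abcb10-null libraries. Abcb10-null libraries were below WT at day 0 and above WT at day 5, and the mean of *Myc* was highest at day 2 in both genotypes. For *Myc*, Abcb10-null minus WT on the log2 scale came to -0.39 ± 0.11, 0.36 ± 0.14 and 0.84 ± 0.13 at the 3 days in order (± SE, edgeR adjusted p = 0.00908, 0.0695 and 0.000307). *Myc* over the 5 days moved by -1.21 ± 0.14 in WT and 0.032 ± 0.11 in Abcb10-null cells on the log2 scale (edgeR adjusted p = 3.6e-06 and 0.804), with an interaction of 1.25 ± 0.17 (adjusted p = 8.28e-06). The *Myc* change from day 0 to day 2 was 0.26 (edgeR adjusted p = 0.0914) in WT and 1.08 (adjusted p = 2.54e-05) in Abcb10-null cells. Between genotypes, *Ubtf* gave log2 fold changes of -0.23 ± 0.057 (SE, edgeR adjusted p = 0.00386), 0.26 ± 0.15 (adjusted p = 0.186) and 0.65 ± 0.15 (adjusted p = 0.005) at days 0, 2 and 5. The *Ubtf* log2 change from day 0 to day 5 was -0.80 ± 0.11 in WT (edgeR adjusted p = 2.22e-05) and 0.091 ± 0.11 in Abcb10-null cells (adjusted p = 0.499), and the interaction was 0.90 ± 0.17 (adjusted p = 0.000244). *Rrn3* had log2 fold changes, Abcb10-null over WT, of 0.10 ± 0.058 (SE, edgeR adjusted p = 0.174) at day 0, 0.52 ± 0.14 (adjusted p = 0.0141) at day 2 and 0.24 ± 0.13 (adjusted p = 0.173) at day 5. *Rrn3* from day 0 to day 5 changed by -0.46 ± 0.12 in WT and by -0.32 ± 0.075 in Abcb10-null cells (log2, edgeR adjusted p = 0.00494 and 0.00141), a difference of 0.15 ± 0.15 (interaction, adjusted p = 0.484). *Rrn3* was called higher at day 5 without WT replicate 5 (edgeR adjusted p = 0.00841), and *Myc* was called higher at day 2 in 3 of 7 other settings. Of 9 tested genes of the MYC network, which includes its partner *Max* and its antagonists, 3 were higher and 1 lower at day 0, none higher and 3 lower at day 2, and 1 higher and 5 lower at day 5 (median -0.51), against 19.8% and 17.8% of all genes at day 5. Whether these transcripts bear on the members was not tested.

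The promoters were searched for the E-box bound by MYC and related factors. RefSeq promoter sequences, 250 bases before to 50 bases after each start on GRCm38.p6, were found for 39 of the 45 members (not for *Npm1*, *Fbl*, *Utp6*, *Rrp12*, *Bop1* and *Rrs1*). The letters CACGTG, which read the same on both strands, occurred in 10 of the 39 (25.6%). They occurred in 12% of the 8982 genes tested at day 5 that had a promoter entry, the genes tested meant below. Over all 27025 genes with such an entry the share was 8.09%. The shorter CCGGAAG, a core letter string of ETS factor sites, was searched on both strands and occurred in 15 of 39 (38.5%), in 22.1% of genes tested and in 9.93% of all genes. A CCAAT box was in 35.9% of members and 44.1% of genes tested, a GC box (GGGCGG) in 66.7% and 70.1%, and a TATA box (TATAAA) in 5.13% and 8.06%. The day 5 log2 fold change had a median of 1.01 over the 10 members with the E-box (0.51 to 1.62) and 0.80 over the 29 without it (-0.29 to 1.56). For the interaction from day 0 to day 5 the medians were 1.09 (0.74 to 1.70) and 0.97 (0.32 to 1.72). A difference between members with and without the E-box was not tested. A match is a string of letters and not evidence of binding. In the day 5 log2 fold change the 10 members ran from *Pno1*, *Utp20* and *Mybbp1a*, at 0.51, 0.55 and 0.62, to *Tsr1* and *Wdr43*, at 1.45 and 1.62.

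For the 6 of them described above by library, the E-box is printed in capitals with up to 12 bases on each side, 5' to 3' on the strand of the gene. The window of *Mybbp1a* is chr11:72441355-72441376 on the plus strand, its E-box beginning 40 bases past the start. The window of *Wdr43* is chr17:71616220-71616249 on the plus strand, its E-box beginning 17 bases past the start. The window of *Utp20* is chr10:88826765-88826789 on the minus strand, its E-box beginning 37 bases past the start. The window of *Pno1* is chr11:17211540-17211564 on the minus strand, its E-box beginning 37 bases past the start. The window of *Tsr1* is chr11:74898092-74898121 on the plus strand, its E-box beginning 24 bases past the start. The window of *Pes1* is chr11:3963965-3963994 on the plus strand, its E-box beginning 2 bases past the start.
Mybbp1a: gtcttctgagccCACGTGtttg
Wdr43: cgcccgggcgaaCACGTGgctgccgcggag
Utp20: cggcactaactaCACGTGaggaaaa
Pno1: tgtacaaccacgCACGTGttcctct
Tsr1: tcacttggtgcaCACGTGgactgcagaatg
Pes1: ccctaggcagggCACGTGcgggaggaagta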

How the data were processed

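Total RNA-seq libraries of both genotypes of MEL cells were used, taken before DMSO (1.5%) and on days 2 and 5, 5 per genotype and day, grouped by their titles, which call them biological replicates. The extraction notes name removal of ribosomal and globin RNA and a stranded kit. The authors aligned the reads with STAR 2.6.1b and deposited a table of raw counts per gene made with featureCounts 1.6.3 (GRCm38, per the submitters' processing notes), and the strand and multimapping settings are not given in the sources used here. Library totals ran from 9906783 to 20157768 counts.

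The members, gene lists and tests were chosen with earlier results of these data known. Each comparison was fitted on its own groups with edgeR 4.0.16 in R 4.3.3 (TMM scaling, filterByExpr, quasi-likelihood F test, Benjamini-Hochberg adjustment over all genes tested, threshold 0.05), and interactions were tested on the 4 groups involved. Standard errors were computed as the absolute log2 fold change divided by the square root of F. The fits were tested on simulated data, drawn without groups of replicates that stand apart. At a true log2 change of 1, edgeR called 73 of 97 genes with the right sign between genotypes at day 5. It called 62 of 100 in the interaction from day 0 to day 5. Of unchanged genes it called 10 of 12259 and 8 of 13486. Per-library values are given, in each role class, for the member with the highest level per length, the largest day 5 against day 0 change in WT and the largest genotype difference at day 5, and for members that went against the other calls. Gene positions came from GENCODE M21, which held 54495 of the 54532 genes, and promoters from RefSeq. Transcripts count as alike at 95% identity over 200 bases or more.

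Alternatives were DESeq2 1.42.0, its size factors in edgeR, other filters on low counts, a single fit of all 30 libraries, a fit leaving out the globin, mitochondrial and short non-coding genes, the replicate number as a block, and leaving out each library. Leaving out groups of Abcb10-null day 2 libraries was chosen after seeing the data.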

Additional observations from a re-analysis of the deposited data

Results flagged for a closer look

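In 9 of 120 groups of 5 libraries, 1 library lay apart from the other 4 by Dixon's criterion, where chance gives about 1 in 20. WT day 5 replicate 5 was apart for *Ddx21* at 194 CPM (the others 127 to 141), *Utp20* at 48.3 CPM (the others at most 32.2) and *Tsr1* at 61.1 CPM (37.5 to 44.2). WT day 2 replicate 4 was apart for *Gar1* at 14.9 CPM (9.93 to 11.3), for *Ncl* at 462 CPM (319 to 355) and for the sum of the members at 7574 CPM (6130 to 6433). *Mybbp1a* was low in Abcb10-null day 0 replicate 3 at 109 CPM (141 to 151). *Tsr1* was high in Abcb10-null day 5 replicate 5 at 149.5 CPM (113 to 120.4), and *Wdr12* was high in Abcb10-null day 0 replicate 1 at 226 CPM (199 to 206).

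The change over time differed between the genotypes by the interaction test of edgeR in 36 members from day 0 to day 2, in 4 from day 2 to day 5 and in 41 from day 0 to day 5. For the last interval the change in Abcb10-null minus that in WT, on the log2 scale, was 1.70 for *Tsr1*, 1.62 for *Gnl3*, 1.59 for *Gar1*, 1.56 for *Npm1*, 1.55 for *Wdr43*, 1.54 for *Nop58*, 1.46 for *Nop56* and 1.37 for *Ddx21*. It was 1.21 for both *Wdr12* and *Nip7*, 1.16 for *Rrp9*, 1.14 for *Nolc1*, 1.09 for *Mybbp1a*, 1.03 for *Rrp12*, 0.93 for *Ncl*, 0.92 for *Nhp2*, 0.82 for *Utp20*, 0.76 for *Pno1* and 0.74 for *Pes1*.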

How the results depend on the processing

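The counts of members called stayed within 1.5 times the reported count in 87 of 94 comparisons with another setting, and in 136 of 150 with 1 library left out. One fit of all 30 libraries called 5 members at day 0 and 8 in the interaction from day 2 to day 5. The share of all genes called in it is not given here. In that fit *Wdr12* at day 0 was 0.00023 and *Ncl* at day 5 was 0.0041 on the log2 scale. *Nip7* at day 0 was -0.00022 with DESeq2 and -0.00015 with its size factors. With all genes of at least 1 count, the Abcb10-null change from day 0 to day 5 was -0.065 for *Myc* and -0.012 for *Ubtf*. Without TMM scaling the summed level was 14110 CPM in WT at day 0 and 7212 CPM in WT at day 2.

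Without Abcb10-null day 2 replicates 1, 3 and 4, edgeR called 0 members between genotypes at day 2 (9 at an unadjusted p under 0.05, median 0.24), with *Rrp12* at -0.45. It called 37 from day 0 to day 2 (median -0.72) and 15 from day 2 to day 5 (median -0.30) in Abcb10-null cells, and 15 (median 0.41) and 11 (median 0.80) in the interactions over those intervals. Without replicates 2 and 5 those interactions had medians of 0.98 and 0.052. The share of all genes called under these settings is not given here, and the cause of the changes under them was not tested.

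Leaving out each library gave 22 to 31 calls between genotypes at day 0, 20 to 32 at day 2 and 33 to 41 at day 5, and 1 to 9 in the interaction from day 2 to day 5. The interaction from day 0 to day 5 then had a median of 1.00 to 1.25. The log2 values that changed sign ran from -0.044 to 0.010 for *Wdr12* and from -0.024 to 0.059 for *Nip7* at day 0, from -0.12 to 0.072 for *Ncl* at day 5, and from -0.022 to 0.066 for *Myc* and from -0.042 to 0.17 for *Ubtf* from day 0 to day 5 in Abcb10-null cells. None of these values was called. Calls of named members that were lost are given beside them in the results, and leaving out 1 library lost none of their calls from day 0 to day 5 in either genotype or in the interaction over those days.

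The replicate block called 24, 30 and 38 members between genotypes at days 0, 2 and 5, and 25 in Abcb10-null cells from day 2 to day 5. The correlation of deviations between libraries with the same number had a median of -0.014 over 75 pairs, ran from -0.26 to 0.43 and passed 0.1 in 8. Whether some of these libraries were grown or prepared together cannot be told from it. Depth limits *Gar1* most, whose lowest count was 33.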
